A study of Homo sapiens with 42 samples.

Results

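Transitive loop triplets are sets of 3 loop anchors A, B and C, in order along a chromosome, in which A is joined to B, B to C and also A to C. They were found in a table of chromatin loops by requiring that all 3 loops be listed with anchors that start at identical 10 kb positions. The table holds 33914 loops, and 638 triplets were found, made of 1786 loops. Of these loops, 1167 were only inner (A-B or B-C), 597 were only outer (A-C), and 22 were inner in one triplet and outer in another. The remaining 32128 loops were in no triplet. The choice among the listed loops used anchor positions alone and no contact count. How the listed loops were called is not given in the sources used here, so membership may not be independent of the counts.

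The loops were measured in K562 cells by in situ Hi-C, in which neighbouring DNA ends are ligated inside crosslinked nuclei and sequenced as pairs. K562 is a human leukemia line, long established, that carries the BCR-ABL fusion. Cells of wild-type genotype were treated with 25 nM PMA, a phorbol ester that drives K562 cells toward a megakaryocyte-like state, for 0 h, 6 h or 72 h, with fresh medium after the first and the second day. Each time had 4 biological replicates, and technical replicates were summed into 12 libraries of 736929 to 1472197 contacts over all listed loops. The cells are 1 line, and Hi-C holds no expression, so cell identity could not be checked against marker genes. Triplet loops held between 6.87% and 7.21% of the contacts of each library. Replicates 3 and 4 of 72 h showed no difference detectable above sampling noise (chi-square test over tested loops, p = 0.367). In every mean ± SD they therefore count as a single sample, which gives n = 3 at 72 h and n = 4 at 0 h and 6 h. They remained separate libraries in the fits. Replicates 3 and 4 were also the most alike pair at 0 h and at 6 h. There the chi-square per degree of freedom was 1.0179 and 1.0229 (chi-square test, p = 0.0253 and 0.00621). At these times they were kept as separate samples, so n = 4 may overstate the number of independent samples. The labels do not say whether replicates were separate cultures, so p-values measure the spread between these libraries only.

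Most loops of mammalian genomes form when cohesin, a ring-shaped complex, extrudes DNA until it meets CTCF bound at its motif. An anchor can take part in several loops, in different cells or at different moments, and contacts counted over a population of cells do not tell whether A, B and C meet at once. Other loops join promoters with enhancers, which bind lineage factors and, after a phorbol ester, AP-1, the dimers of FOS and JUN proteins.

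Promoters from RefSeq (GRCh38.p14, 250 bases before to 50 after the start) were placed in the anchors. Of 229 promoters of protein-coding genes that start in a triplet anchor, 5 (2.18%) held a match to the 12-base CTCF core motif on either strand. The share was 0.688% of 5376 promoters in all listed anchors and 0.414% of all 22199 promoters. The difference rests on few matches and was not tested. Triplet anchors take part in more loops than other anchors, and anchors of several loops outside triplets were not compared. The 5 promoters are shown because CTCF is the best known anchor protein and they are the places where anchor sequence could be read. The windows lie at chr1:109984561-109984620 (AHCYL1, a regulator of inositol trisphosphate receptors), chr3:136752383-136752442 and chr3:136752329-136752384 (STAG1, a subunit of cohesin itself, with 2 matches), chr7:90154365-90154424 (STEAP1, a membrane metalloreductase family member), chr9:124853210-124853246 (WDR38) and chrX:23782935-23782994 (SAT1, which acetylates polyamines). Each is written 5′ to 3′ along its gene's strand, which is minus for STAG1 and plus for the others, with the match in capitals.
AHCYL1: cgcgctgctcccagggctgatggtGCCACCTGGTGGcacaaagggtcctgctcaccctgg
STAG1, upstream match: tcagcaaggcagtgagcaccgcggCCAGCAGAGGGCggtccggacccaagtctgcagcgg
STAG1, downstream match: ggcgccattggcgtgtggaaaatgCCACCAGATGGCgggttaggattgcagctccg
STEAP1: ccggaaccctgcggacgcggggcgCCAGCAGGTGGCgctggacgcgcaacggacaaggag
WDR38: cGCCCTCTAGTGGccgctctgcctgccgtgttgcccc
SAT1: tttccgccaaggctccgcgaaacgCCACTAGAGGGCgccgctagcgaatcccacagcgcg
The match ran along the gene in STAG1, STEAP1 and SAT1 and against it in AHCYL1 and WDR38. A match is a description of the letters and not evidence of binding.

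For AP-1, the motif TGANTCA (7 bases, the same on both strands) occurred in 17 of the 229 promoters (7.42%), against 5.34% at all anchors and 6.15% of all promoters. These shares were not tested either. FOSL2, which encodes a FOS family member of AP-1, was one of the genes with a match at a triplet anchor, and its promoter (chr2:28392608-28392907, plus strand) is shown with the match in capitals.
FOSL2: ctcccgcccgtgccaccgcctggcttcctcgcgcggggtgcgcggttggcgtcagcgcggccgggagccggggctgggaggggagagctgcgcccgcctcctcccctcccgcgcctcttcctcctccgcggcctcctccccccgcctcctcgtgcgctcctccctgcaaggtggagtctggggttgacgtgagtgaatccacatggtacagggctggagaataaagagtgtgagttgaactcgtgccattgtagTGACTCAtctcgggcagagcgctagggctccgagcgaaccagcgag

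GYPE and GYPB, glycophorin genes of the red cell membrane, stand at 2 anchors of a triplet that fell with treatment (described further on). Their promoters (chr4:143905510-143905809 and chr4:144019296-144019595, both on the minus strand) are shown because the genes are near-identical copies. Over 294 aligned bases, 287 were the same (97.6%).
GYPE: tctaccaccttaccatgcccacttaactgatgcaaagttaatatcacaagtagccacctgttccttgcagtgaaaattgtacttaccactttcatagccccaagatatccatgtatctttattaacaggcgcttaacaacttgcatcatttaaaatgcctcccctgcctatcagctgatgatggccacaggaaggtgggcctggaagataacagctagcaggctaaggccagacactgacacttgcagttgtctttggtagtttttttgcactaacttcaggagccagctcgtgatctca
GYPB: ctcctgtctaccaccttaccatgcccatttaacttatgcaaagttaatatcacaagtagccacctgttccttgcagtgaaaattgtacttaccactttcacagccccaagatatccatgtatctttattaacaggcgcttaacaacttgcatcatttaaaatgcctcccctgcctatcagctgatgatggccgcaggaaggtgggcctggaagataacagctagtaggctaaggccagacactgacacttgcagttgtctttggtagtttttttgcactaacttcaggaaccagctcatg

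The 638 triplets used 1653 anchors, which took part in a mean of 3.39 listed loops each, against 1.48 for the other anchors. An anchor of a triplet has at least 2 loops by construction. The triplets formed 502 connected groups, of which 397 were a single triplet. Of the member loops, 127 were in several triplets, with 3 as the highest number. In 3 places 4 anchors were all joined to each other. Chromosome 10 had 42 triplets among 1390 listed loops (30.2 per 1000 loops), while chromosome 13 had 13 among 1638 (7.94 per 1000). The start of a protein-coding gene lay in 12.8% of middle anchors, 9.68% of first anchors and 8.87% of last anchors, against 8.9% of all anchors. When anchors within 1 bin (10 kb) of each other were taken as the same, 5295 triplets were found, so the exact rule takes the smaller, stricter set.

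Triplets spanned from 100 kb to 4080 kb, with a median of 560 kb, and the middle anchor lay between 25% and 75% of the span in 460 of them (72.1%). The median length was 240 kb for inner loops, 570 kb for outer loops and 450 kb for loops in no triplet. Contacts fall with length, so levels are compared within length classes. Levels are normalized counts, that is, contacts per 1000000 contacts in tested loops after TMM scaling, with the median taken over loops. Between 400 and 800 kb the median was 26.4 for outer loops, 18.1 for inner loops and 13.5 for loops in no triplet. From 200 to 400 kb the medians were 44.6, 30.9 and 27.8 in the same order, and from 800 to 1600 kb they were 12.1, 10.2 and 5.78. In each of these classes outer loops thus had the highest median count per loop. No test was made, and how the authors' loop caller treats adjoining loops is not given in the sources used here.

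**Figure D1:**
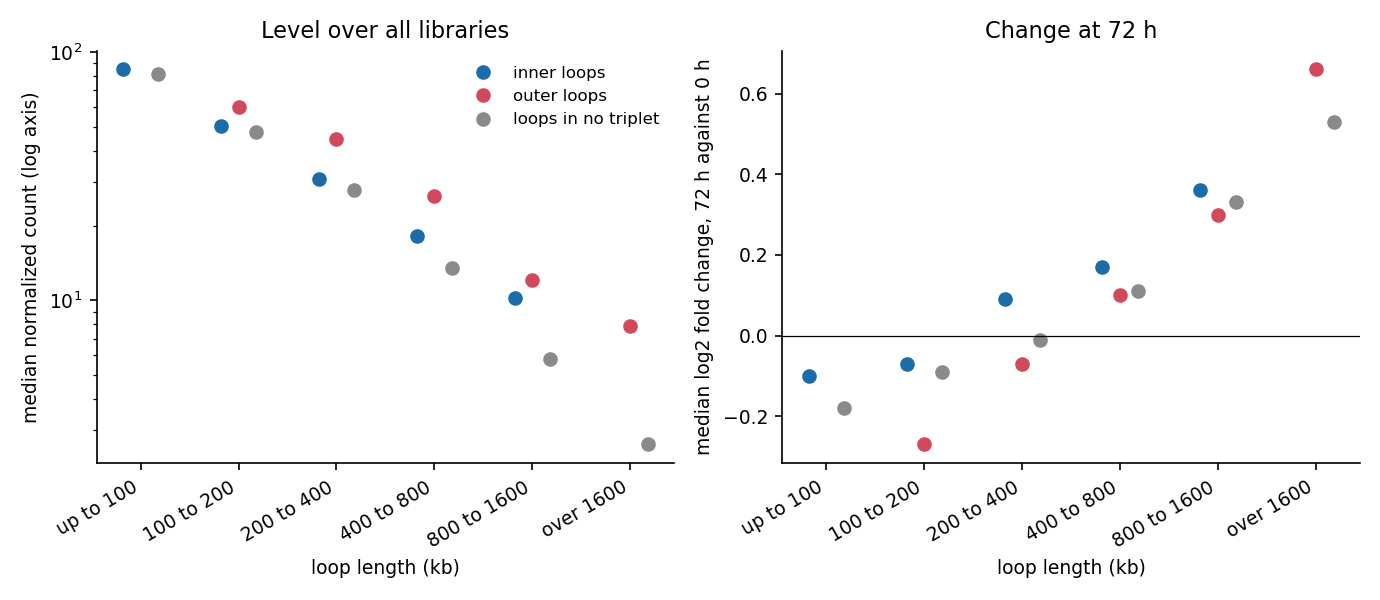
Median normalized count on a log axis (left) and median log2 fold change at 72 h against 0 h (right) of inner loops, outer loops and loops in no triplet, by loop length in kb; classes with fewer than 20 tested loops are not drawn. Outer loops lie above both other classes in level from 100 kb on, while in change the classes follow the same rise with length.

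Within triplets the outer loop was the weakest of the 3 in some and the strongest in others. Among the 547 triplets whose loops all had enough counts for a test, the outer loop had the lowest mean count in 274 and the highest in 85. Its count was 71.0% of the geometric mean of its inner loops at 0 h (median over triplets), 73.2% at 6 h and 72.8% at 72 h. It exceeded the weaker inner loop in 268, 279 and 277 triplets at the 3 times. Where the inner loops differed in length, the shorter one had the higher count in 420 of 542 triplets.

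Chains of adjoining loops show how often a triplet is closed. The table held 5489 pairs of loops A-B and B-C that share the middle anchor, and in 638 of them (11.6%) the far anchors were joined as well. Closure was counted at identical 10 kb starts, so a chain whose outer loop is listed in a neighbouring bin counts as open. Closure fell with distance, from 30% of chains that span up to 200 kb to 17.9% at 400 to 800 kb and 0.718% above 3200 kb. Contacts also fall with length, and the part of loop detection in this fall was not tested. At 400 to 800 kb the inner loops of closed chains had a median normalized count of 35.7, against 29.5 in open chains. From 1600 to 3200 kb the values were 13.2 and 5.44. Within these classes closed chains were also somewhat shorter, with median spans of 570 against 590 kb and 1910 against 2270 kb.

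**Figure D2:**
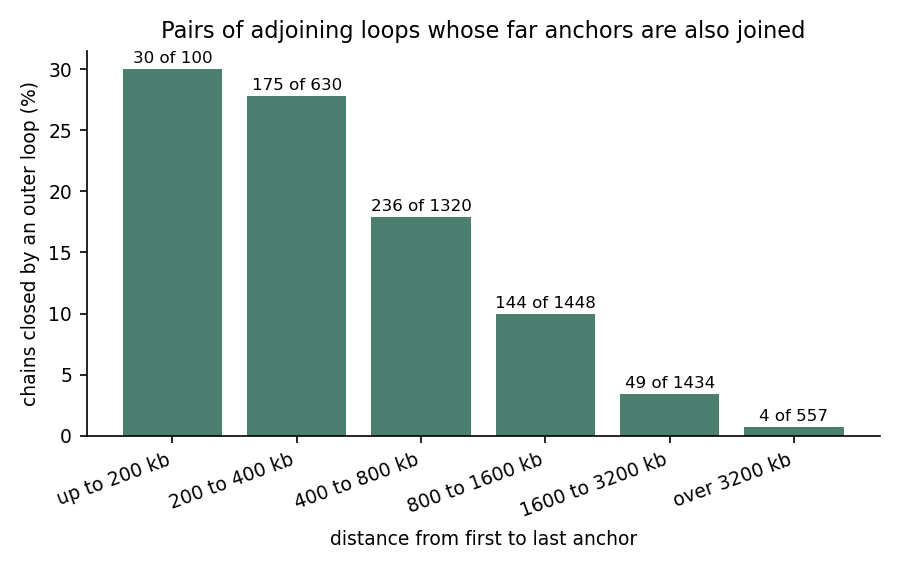
Percentage of chains A-B and B-C whose far anchors A and C are also listed as a loop, by the distance from A to C, with the number of closed chains of all chains above each bar. The share falls from 30% up to 200 kb to 0.718% above 3200 kb.

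Changes were tested with edgeR's quasi-likelihood test over all 24132 loops that passed its filter on low counts, with Benjamini-Hochberg adjustment and a threshold of 0.05. A loop past the threshold is called gained when it rose and lost when it fell. Of the triplet loops, 1634 passed the filter (1086 inner, 527 outer and 21 with both roles) and 152 did not. The filter keeps a loop that reaches the minimum at a single time, so the tested loops do not stand for all 1786.

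At 6 h against 0 h, 111 triplet loops were called, 37 gained and 74 lost. This is 6.79% of those tested, against 6.41% of all tested loops, of which 2.34% were gained and 4.07% lost. Inner loops gave most of the calls, with 26 gained and 65 lost (8.38% of 1086), while 11 outer loops were gained and 9 lost (3.8% of 527). Tested inner loops had a higher median normalized count than tested outer loops (37.4 against 29.0), and inner loops were shorter. Shares called at 6 h were not compared at equal length or count. The median log2 fold change was 0.01 for inner and 0.06 for outer loops. The count fell to 47 without replicate 1 of 0 h and to 66 without replicate 2 of 6 h, and DESeq2 called 48. With libraries scaled to their total count the split became 55 gained and 55 lost, and with a correction for loop length 33 were gained and 46 lost. Within replicates 1 and 2 alone 41 loops were called, and within replicates 3 and 4 alone 16.

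At 72 h against 0 h, 570 triplet loops were called, 331 gained and 239 lost. This is 34.9% of those tested, against 33.6% of all tested loops, of which 16.7% were gained and 16.9% lost. Among inner loops 225 were gained and 182 lost (37.5% called), and among outer loops 103 were gained and 54 lost (29.8% called). The median log2 fold change over the gained loops was 0.64 in inner and 0.73 in outer loops, and over the lost loops -0.51 and -0.52. Taken over all tested loops of each class the median was 0.05 for inner loops, 0.08 for outer loops and 0.01 for loops in no triplet. Within replicates 1 and 2 alone 361 triplet loops were called, within replicates 3 and 4 alone 277, and by DESeq2 340. With no filter on low counts the split turned to 261 gained and 304 lost, and to 167 and 221 among inner loops. With a correction for loop length 256 were gained and 254 lost.

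Loop length moved with these counts. At 72 h, loops between 800 and 1600 kb had a median log2 fold change of 0.36 for inner, 0.30 for outer and 0.33 for loops in no triplet. From 400 to 800 kb it was 0.17, 0.10 and 0.11, and from 200 to 400 kb 0.09, -0.07 and -0.01. Loops up to 100 kb had -0.10 when inner and -0.18 in no triplet. With a length correction 52 outer loops were gained and 85 lost at 72 h, so that the split of the outer loops turned. The inner loops then had 201 gained and 167 lost. The plot of levels and changes by length shows both patterns.

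Between 6 h and 72 h, 328 triplet loops changed, 196 gained and 132 lost. The share was 20.1%, against 20.5% of all tested loops, with 10.7% gained and 9.81% lost over all. It was 20.1% in inner loops and 19.7% in outer loops. DESeq2 called 123, and within replicates 1 and 2 and replicates 3 and 4 the counts were 146 and 113.

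Whether an outer loop changed apart from its inner loops was tested directly on the log2 ratio of outer to inner count in each library. A limma fit over all 21575 nested pairs of tested loops that share an anchor gave the p-values, and 1108 of these pairs were in triplets. At 6 h the ratio changed in 20 triplet pairs, up in 12 and down in 8. That is 1.81% of the triplet pairs, against 1.96% of all nested pairs, of which 1.49% went up and 0.463% down. An unadjusted p under 0.05 was reached by 158 triplet pairs. The count of 20 depended on single libraries: leaving out any library of 0 h or 6 h in turn gave 8 (without replicate 3 of 6 h) to 13 (without replicate 2 of 6 h).

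At 72 h the ratio changed in 104 triplet pairs (9.39%), up in 55 and down in 49. The background was 10.8% of all nested pairs, 6.24% up and 4.59% down. With the length correction 29 rose and 81 fell. Summing the 72 h replicates 3 and 4 left 36 pairs that rose, and leaving out replicate 2 of 72 h left 31 that fell. In the remaining triplet pairs the ratio did not pass the threshold, which does not show that both loops changed alike.

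The share of triplet contacts that fell in outer loops summarizes the balance in each library. At 0 h it was 26.03%, 26.02%, 25.68% and 25.99% in replicates 1 to 4 (25.9% ± 0.17, SD, n = 4). At 6 h it was 26.79%, 27.0%, 26.96% and 27.08% (27.0% ± 0.12, n = 4). All 4 libraries of 6 h thus lay above all 4 of 0 h. At 72 h it was 26.15%, 25.66%, 27.19% and 27.33% (26.4% ± 0.82, n = 3). Replicates 1 and 2 of 72 h overlapped the 0 h values, while replicates 3 and 4 lay above every other library. Replicates 1 and 2 had a mean of 26.0% at 0 h, 26.9% at 6 h and 25.9% at 72 h, and replicates 3 and 4 had 25.8%, 27.0% and 27.3%. From 0 h to 6 h the share rose in both sets, by 0.87 and 1.18 percentage points. From 0 h to 72 h it moved by -0.12 and 1.42 points, so the sets went different ways at 72 h. The sets were sequenced differently (replicates 3 and 4 had repeat runs of fewer technical replicates), and the part of this in the result was not tested. Since the triplets were chosen with earlier results known, no p-value is given for this share.

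**Figure D3:**
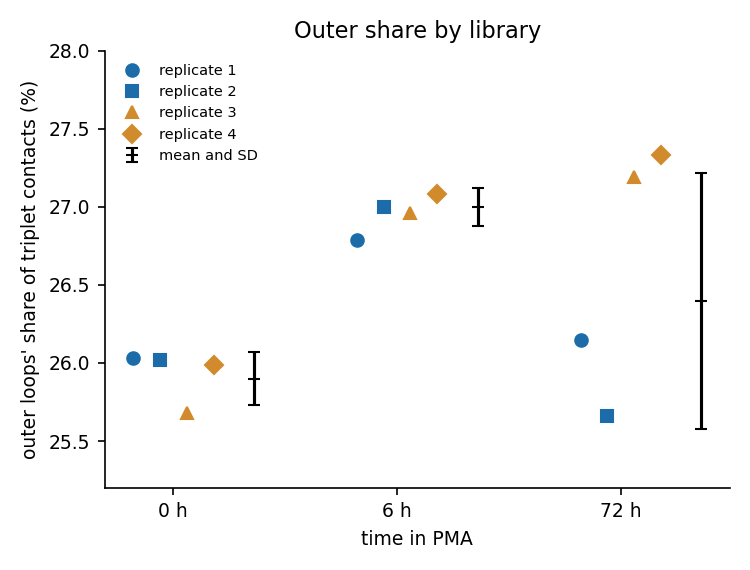
Outer loops' share of all triplet contacts, in percent, in each of the 12 libraries by time in PMA; symbols mark the replicate, and bars give mean and SD (n = 4, 4 and 3, with the 72 h replicates 3 and 4 counted as 1). The 6 h libraries lie between 26.8% and 27.1%, above all 0 h libraries, while the 72 h libraries fall on both sides of them.

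Seen triplet by triplet, 363 of the 547 fully tested triplets (66.4%) had at least 1 loop called at 72 h against 0 h. A triplet has 3 loops that can be called, and 33.6% of all single tested loops were called. No sets of 3 loops outside triplets were counted, so whether the triplet counts are particular to triplets was not tested. In 190 triplets a single loop was called, in 130 a pair and in 43 all 3. All 3 loops were gained in 24 triplets and lost in 17. Loops of the same triplet were called in opposite directions in 33 (6.03%). In 22 of these the inner loops moved against each other, and in 21 of the 22 the outer loop was not called. The outer loop was lost while both inner loops were gained in 1 triplet, and the reverse was found in 0. That triplet lies at CEMIP, and some of its calls were lost under alternatives given further on. Where both inner loops were gained, in 50 triplets, the outer loop was gained in 24 and not called in 25. Where both were lost, in 33 triplets, it was lost in 17 and not called in 16. The outer loop alone was called in 48 triplets, gained in 35 and lost in 13. Of tested outer loops 19.5% were gained and 10.2% lost, against 16.7% and 16.9% of all tested loops. The split of the outer loops turned with the length correction, as given above.

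The outer log2 fold change lay between those of its inner loops in 214 triplets (39.1%), above both in 176 (32.2%) and below both in 157 (28.7%). Across the 547 triplets, which share libraries and partly loops and are not independent, the outer change and the mean inner change had a Spearman coefficient of 0.61, and the changes of the inner loops one of 0.33. The first coefficient uses a mean of 2 loops and the second single loops, so they cannot be set against each other. No coefficient was taken for nested loops outside triplets. At 6 h the coefficients were 0.29 and 0.19. A loop was called in 107 triplets (19.6%), where 6.41% of all single tested loops were called. In 2 triplets all 3 loops were lost at 6 h, in 0 all 3 were gained, and in 1 loops were called in opposite directions.

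**Figure D4:**
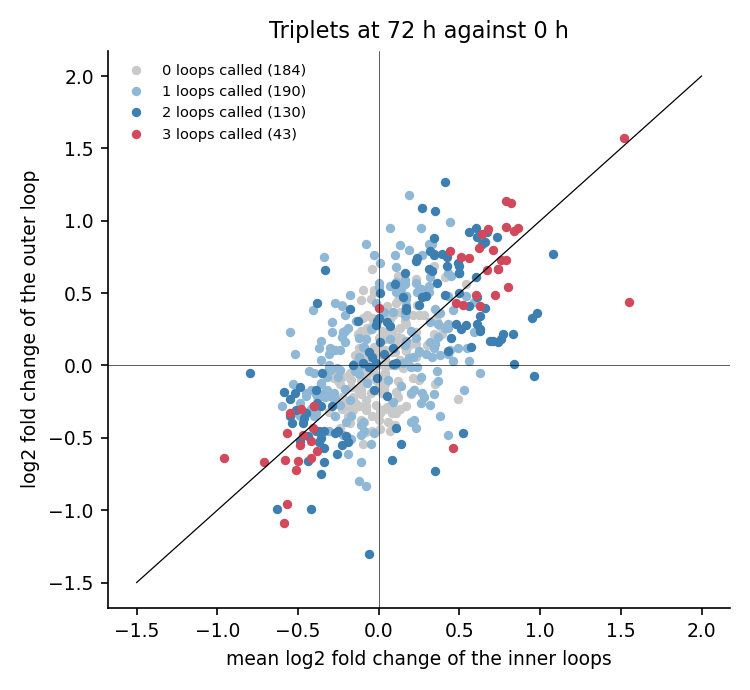
Log2 fold change of the outer loop against the mean log2 fold change of its inner loops at 72 h against 0 h, 1 point for each of 547 triplets, coloured by how many of the 3 loops were called; the line marks equal change. Points scatter widely around the line, and the point at 1.52 and 1.57 is a triplet around EGFR.

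By the rule for named triplets, which ranks triplets by the loop that changed least, the first of those with 3 gained loops lies around EGFR, the gene of the epidermal growth factor receptor, a receptor tyrosine kinase. Its anchors Q (chr7:54990001-55000000), R (chr7:55130001-55140000) and S (chr7:55250001-55260000) hold no end of a protein-coding gene, R lies inside the body of EGFR, and EGFR is the only protein-coding gene that lies wholly between Q and S. The loop Q-R, from upstream of the gene into its body, had normalized counts of 16.7, 8.54, 12.5 and 15.9 in the 4 libraries of 0 h, 23.5, 28, 24.1 and 31.4 at 6 h, and 66.3, 53.2, 47.8 and 51.8 at 72 h. The 3 times did not overlap. On the log2 scale Q-R rose by 0.88 at 6 h (SE 0.22, edgeR adjusted p = 0.005) and by 1.87 at 72 h (SE 0.18, adjusted p = 1.7e-16). R-S had 29.0, 19.9, 26.3 and 20.5 at 0 h, 21.6, 28, 31.1 and 21.7 at 6 h, and 66.3, 56.2, 58.2 and 46.4 at 72 h. It was not called at 6 h (log2 fold change 0.06, adjusted p = 0.91) and rose by 1.16 at 72 h (SE 0.16, adjusted p = 2.7e-09). The outer loop Q-S, which encloses the gene, went from 20.3, 23.7, 12.5 and 22.7 through 19.6, 22.4, 21.2 and 18.1 to 74.3, 51.2, 62.4 and 66.1. Its log2 fold change was 0.02 at 6 h (adjusted p = 0.98) and 1.57 at 72 h (SE 0.17, adjusted p = 6.2e-15).

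At this locus the ratio of Q-S to Q-R fell at 6 h by 0.86 on the log2 scale (SE 0.25, limma adjusted p = 0.044). At that time Q-R was called gained and Q-S was not called. The ratio call lies near the threshold, and the count of ratio calls at 6 h depended on single libraries. Values of this ratio without single libraries are not given here, so the order of the changes is not settled. By 72 h the ratio of Q-S to Q-R was at -0.30 (adjusted p = 0.47) and that of Q-S to R-S at 0.42 (adjusted p = 0.26), neither past the threshold.

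Q-S is also an inner loop of a larger triplet with the anchor P (chr7:54780001-54790000), which lies further upstream and holds no end of a protein-coding gene. P-Q had 19.6, 24.7, 17.6 and 25.0 at 0 h, 34.3, 24.3, 25.5 and 31.4 at 6 h, and 63.7, 51.2, 68.6 and 82.1 at 72 h, and rose at 72 h by 1.54 on the log2 scale (SE 0.16, adjusted p = 6.8e-15). The outermost loop P-S was already the strongest at 0 h, with 54.3, 54.1, 50.2 and 71.6, against 70.6, 64.5, 63.7 and 96.5 at 6 h and 88.5, 62.2, 79.0 and 83.0 at 72 h. It rose by 0.44 (SE 0.13, adjusted p = 0.005), a call that DESeq2 did not make (log2 fold change 0.40, adjusted p = 0.085), and its 0 h and 72 h libraries overlapped. The ratio of P-S to P-Q fell by 1.09 (SE 0.21, limma adjusted p = 0.0003) and that of P-S to Q-S by 1.18 (SE 0.23, adjusted p = 0.00033). At 0 h P-S thus stood at 57.6 ± 9.6 beside 19.8 ± 5.1 for Q-S, and at 72 h at 77.2 ± 14.0 beside 63.2 ± 12.

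**Figure D5:**
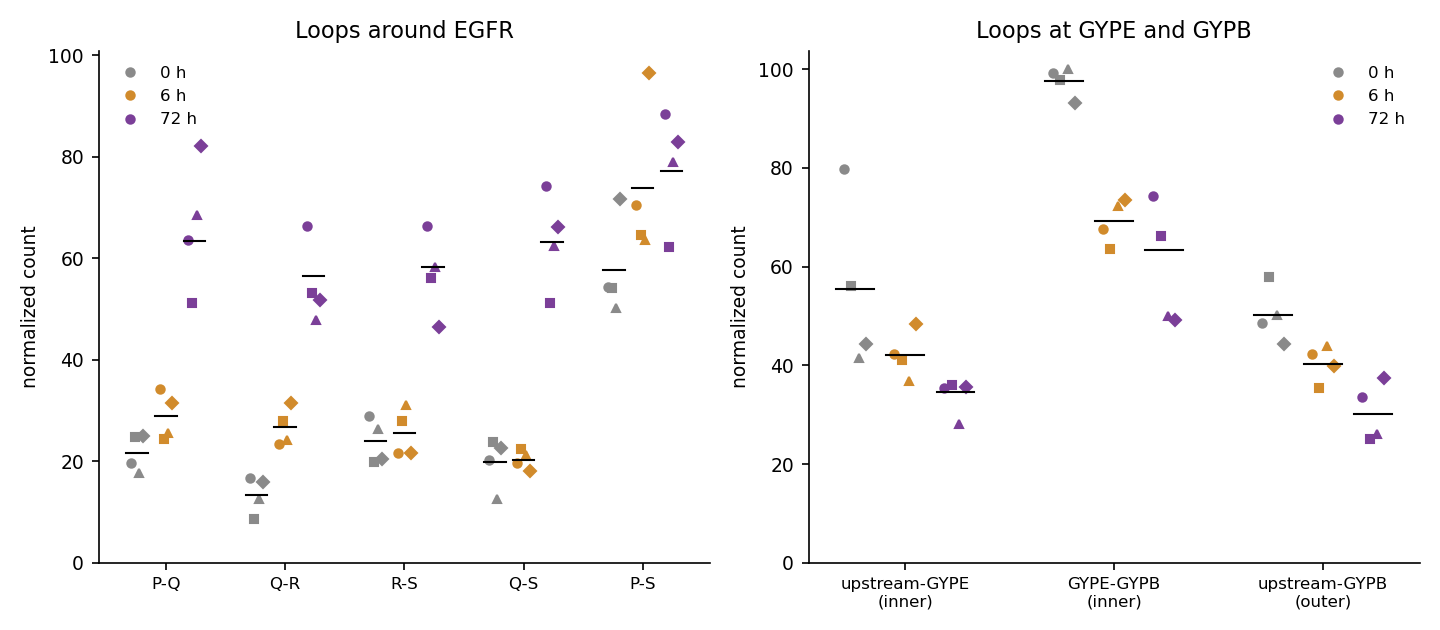
Normalized counts of the 5 loops around EGFR (left; Q-S encloses the gene, R lies in its body, P-S is the longest) and of the 3 loops at GYPE and GYPB (right), 1 symbol per library in 3 colours for 0 h, 6 h and 72 h, with a line at each mean. Around EGFR all loops rise by 72 h and the shorter ones come nearer to P-S, which stays the highest, and at GYPE and GYPB all 3 fall.

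Other triplets in which all 3 loops were gained were found on chromosomes 15, 10 and 12. On chromosome 15, anchors in the body of SV2B, a synaptic vesicle protein (chr15:91300001-91310000), and at the start (chr15:91850001-91860000) and in the body (chr15:92070001-92080000) of SLCO3A1, an organic anion transporter, were joined. The loop within SLCO3A1 had 19.6, 14.2, 21.3 and 25.0 at 0 h, 25.5, 23.4, 18.4 and 24.1 at 6 h, and 35.4, 37.1, 36.4 and 35.7 at 72 h, and rose by 0.81 on the log2 scale (SE 0.18, adjusted p = 0.00022). All 72 h libraries exceeded all earlier ones. The loop from SV2B to the start of SLCO3A1 rose by 0.86 (SE 0.22, adjusted p = 0.0008) and the outer loop of 770 kb by 0.93 (SE 0.18, adjusted p = 1.4e-05). Neither outer-to-inner ratio was called at 72 h (log2 changes of 0.12 and 0.15, adjusted p = 0.83 and 0.73).

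DMBT1, which encodes a secreted scavenger receptor family protein, has its start in the middle anchor (chr10:122560001-122570000) of a triplet of 410 kb. The inner loop from the first anchor (chr10:122290001-122300000, in the body of BTBD16) had 21.2 ± 3.1 at 0 h, 26.6 ± 5.2 at 6 h and 38.5 ± 2.9 at 72 h. Its other inner loop, to chr10:122700001-122710000, went from 19.7 ± 7.9 to 39.6 ± 12, and the outer loop from 8.79 ± 2.7 to 18.4 ± 3.3. The log2 fold changes were 0.80, 0.91 and 0.95 (adjusted p = 0.00018, 5.2e-05 and 0.0013). A triplet of 990 kb on chromosome 12 (chr12:94540001-94550000, chr12:94760001-94770000 and chr12:95530001-95540000, the last in the body of USP44) rose by 0.68, 0.96 and 1.12 (adjusted p = 0.001, 0.0027 and 0.00075).

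Among triplets in which all 3 loops were lost, ranked by the loop that fell least, the first lies at the glycophorin genes, which are expressed in the erythroid lineage. Its anchors are chr4:143770001-143780000, chr4:143900001-143910000 with the start of GYPE, and chr4:144010001-144020000 with the start of GYPB. The loop between the starts of GYPE and GYPB had 99.2, 97.8, 100 and 93.2 at 0 h, 67.7, 63.5, 72.2 and 73.6 at 6 h, and 74.3, 66.3, 49.9 and 49.1 at 72 h. Every treated library lay below every untreated one. It fell by 0.50 on the log2 scale at 6 h (SE 0.12, adjusted p = 0.0057) and by 0.68 at 72 h (SE 0.12, adjusted p = 3.3e-06). The other inner loop had 79.7, 56.0, 41.4 and 44.3 at 0 h and 35.4, 36.1, 28.1 and 35.7 at 72 h, and fell by 0.74 (SE 0.15, adjusted p = 5.1e-05). The outer loop had 48.5, 57.9, 50.2 and 44.3 at 0 h and 33.6, 25.1, 26.0 and 37.5 at 72 h, and fell by 0.67 (SE 0.16, adjusted p = 0.00035). At 6 h these 2 loops had log2 fold changes of -0.44 and -0.32 (adjusted p = 0.058 and 0.23). Because the copies are so alike, as their promoters show, reads from GYPE and GYPB may not be told apart. How the authors' counting split them is not given in the sources used here.

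On the X chromosome a triplet of 710 kb (chrX:40540001-40550000, chrX:40790001-40800000 and chrX:41250001-41260000), which spans ATP6AP2, MED14 and USP9X, fell by 1.14, 0.79 and 0.64 on the log2 scale (adjusted p = 6.7e-06, 0.016 and 0.031). The B-C call was lost without replicate 2 of 0 h (adjusted p = 0.17) or replicate 1 of 72 h (0.067). The outer call was lost without replicate 3 of 0 h (0.07), replicate 2 of 72 h (0.066) or replicate 4 of 72 h (0.14). DESeq2 made neither call (adjusted p = 0.075 for B-C and 0.09 for the outer loop). A triplet on chromosome 15 has ends of CLK3, a splicing kinase, and EDC3, an mRNA decapping factor, in its middle anchor (chr15:74630001-74640000). Its inner loops fell by 0.56 and 0.61 and the outer loop of 570 kb by 1.09, from 20.1 ± 3.4 to 7.70 ± 3.0 (adjusted p = 0.0011, 0.0016 and 0.00018).

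On chromosome 1, a triplet joined an end of WDTC1 (chr1:27300001-27310000), the start of GPR3, a constitutively active receptor (chr1:27390001-27400000), and an end of IFI6, an interferon-induced gene (chr1:27660001-27670000). It fell from 167 ± 14.0 to 115 ± 13.0 in WDTC1-GPR3, from 92.6 ± 8.1 to 57.2 ± 4.9 in GPR3-IFI6 and from 53.7 ± 0.99 to 31.1 ± 9.7 in the outer loop. The log2 fold changes were -0.52, -0.64 and -0.65 (adjusted p = 1.7e-05, 1.7e-05 and 0.00045).

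Triplets in which outer and inner loops parted are the next group. Both ratios were called up at 72 h in a single triplet, at PRIM1, the catalytic subunit of DNA primase (chr12:56750001-56760000), and ZBTB39 with TAC3 (chr12:57000001-57010000), with the last anchor inside NEMP1 (chr12:57060001-57070000). The short inner loop of 60 kb from ZBTB39 to NEMP1 had 130, 137, 129 and 128 at 0 h, 98, 90.6, 80.7 and 105 at 6 h, and 113, 101, 87.4 and 110 at 72 h. The untreated libraries all lay above the treated ones, and the loop fell by 0.34 at 72 h (SE 0.11, adjusted p = 0.0084), or by 0.21 with the length correction (adjusted p = 0.1). The outer loop from PRIM1 to NEMP1 had 50.7, 43.7, 56.5 and 33.0 at 0 h and 48.7, 57.2, 56.2 and 67.8 at 72 h, a log2 fold change of 0.30 that was not called (adjusted p = 0.087). The longer inner loop, from PRIM1 to ZBTB39, had a log2 fold change of -0.23 at 72 h and was not called either (edgeR adjusted p = 0.12). The ratio of the outer loop to this inner loop rose by 0.56, and its ratio to the short inner loop by 0.68 (SE 0.19 for both, limma adjusted p = 0.041 and 0.013). Values of these ratios with the length correction are not given here.

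CEMIP, a hyaluronan-binding protein that aids hyaluronan breakdown, has its start in the middle anchor (chr15:80770001-80780000) of a triplet whose other anchors lie in ARNT2 (chr15:80560001-80570000) and MESD (chr15:80960001-80970000). In the main fit the inner loops were called gained here and the outer loop lost. ARNT2-CEMIP had 34.8, 36.1, 33.9 and 45.5 at 0 h and 63.7, 51.2, 51.0 and 56.2 at 72 h, and rose by 0.56 (SE 0.15, adjusted p = 0.0017). CEMIP-MESD had 42.7, 36.1, 41.4 and 54.6 at 0 h and 56.6, 46.2, 46.8 and 73.2 at 72 h, with overlapping libraries, and rose by 0.36 (SE 0.15, adjusted p = 0.045). That call was lost when any of 9 libraries was left out (log2 fold changes of 0.19 without replicate 4 of 72 h up to 0.35) and with DESeq2 (adjusted p = 0.27) or no filter on low counts (0.13). It was also lost with replicates 3 and 4 summed at 72 h (edgeR adjusted p = 0.064) or at every time (0.061). The outer loop ARNT2-MESD had 31.9, 34.2, 25.1 and 26.2 at 0 h and 26.5, 14.1, 16.6 and 19.6 at 72 h, and fell by 0.57 (SE 0.19, adjusted p = 0.015). Without replicate 1 of 0 h or replicate 2 of 72 h it was no longer called (adjusted p = 0.051 and 0.068), nor was it by DESeq2 (0.063). The outer-to-inner ratios fell by 1.13 (SE 0.24, limma adjusted p = 0.00098) and 0.91 (SE 0.25, adjusted p = 0.01).

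The same pattern of falling ratios was called on chromosomes 21 and 2. In a triplet of 1220 kb (chr21:14260001-14270000, chr21:14860001-14870000 and chr21:15480001-15490000) that spans HSPA13, SAMSN1 and NRIP1, a nuclear receptor corepressor, the outer loop had 26.1, 18, 23.8 and 21.6 at 0 h, 13.7, 16.8, 9.91 and 10.9 at 6 h, and 13.3, 8.03, 15.6 and 14.3 at 72 h. It lay lower in every treated library than in any untreated one and fell by 0.69 at 6 h (SE 0.23, adjusted p = 0.048) and by 0.73 at 72 h (SE 0.22, adjusted p = 0.0065). The inner loop B-C rose by 0.55 at 72 h (SE 0.20, adjusted p = 0.026), a call lost with the length correction (adjusted p = 0.13), no filter on low counts (0.062) or DESeq2 (0.18), or without replicate 1 of 0 h (0.17), replicate 4 of 0 h (0.078) or replicate 4 of 72 h (0.14). A-B had a log2 fold change of 0.14 (adjusted p = 0.68). The ratios fell by 0.97 and 1.27 (SE 0.31 for both, limma adjusted p = 0.034 and 0.0037). At NABP1, a single-stranded DNA binding protein with an end in the last anchor (chr2:191680001-191690000) of a triplet of 120 kb, the ratios fell by 0.61 and 0.67 (limma adjusted p = 0.014 and 0.0028). At 6 h its outer loop A-C was called lost (log2 fold change -0.40, SE 0.13, edgeR adjusted p = 0.035). The inner loops A-B and B-C were not called at 6 h (adjusted p = 0.94 and 0.61). At 72 h its single loops had log2 fold changes of 0.30, 0.34 and -0.27 in A-B, B-C and A-C, of which B-C was called (adjusted p = 0.063, 0.023 and 0.07). The B-C call at 72 h was lost without replicates 2, 3 or 4 of 0 h or replicate 1 of 72 h (adjusted p = 0.09, 0.15, 0.053 and 0.19), and with DESeq2 (0.18) or no filter on low counts (0.093). At 72 h A-B was called without replicate 1 of 0 h or replicate 3 of 72 h (0.034 and 0.04), and A-C without replicate 4 of 0 h or replicate 1 of 72 h (0.047 and 0.004).

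At 6 h, all 3 loops were lost in 2 triplets, both on chromosome 1. One joins GNAI3, an inhibitory G protein subunit (chr1:109540001-109550000), through chr1:109770001-109780000 to the AHCYL1 promoter shown above (chr1:109980001-109990000), and has CSF1 and the GSTM glutathione transferases between its ends. The inner loop at AHCYL1 had 267, 253, 247 and 210 at 0 h, 211, 176, 190 and 191 at 6 h, and 204, 166, 214 and 188 at 72 h. It fell by 0.36 at 6 h (SE 0.09, adjusted p = 0.0076) and by 0.35 at 72 h (SE 0.09, adjusted p = 0.0013). The other loops of the triplet fell by 0.34 (inner) and 0.43 (outer) at 6 h (adjusted p = 0.043 and 0.04) and by 0.42 and 0.59 at 72 h (adjusted p = 0.0012 and 0.00031). Without replicate 1 of 0 h none of the 3 calls at 6 h was kept (adjusted p = 0.062, 0.12 and 0.29). The inner loop at GNAI3 and the outer loop were not called at 6 h by DESeq2 (0.09 and 0.14) or with scaling to the total count (0.063 and 0.061). The inner loop at GNAI3 was also no longer called without replicate 3 of 0 h, replicate 1 of 6 h or replicate 2 of 6 h (adjusted p = 0.11, 0.12 and 0.14), and the outer loop without replicate 3 of 0 h or replicates 1, 2 or 3 of 6 h (0.12, 0.052, 0.17 and 0.07). AHCYL1 is an end of a second triplet, whose outer loop from chr1:109640001 fell from 98.5 ± 8.8 to 67.3 ± 16.0 at 72 h (adjusted p = 0.0017).

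The other lies at SLC30A2, a zinc transporter (chr1:26040001-26050000, chr1:26100001-26110000 and chr1:26140001-26150000), and was also the triplet with the highest counts. Its shortest loop, of 40 kb, had 406, 309, 359 and 345 at 0 h, 319, 230, 294 and 341 at 6 h, and 234, 235, 232 and 242 at 72 h. The 72 h libraries lay below all libraries of 0 h. It fell by 0.27 at 6 h (SE 0.09, adjusted p = 0.033) and by 0.59 at 72 h (SE 0.09, adjusted p = 7.3e-09). The 6 h call was lost with the length correction (adjusted p = 0.39), with DESeq2 (0.087) and without replicate 1 of 0 h (0.25), replicate 3 of 0 h (0.065), replicate 2 of 6 h (0.29) or replicate 3 of 6 h (0.05 after rounding). The inner loop at SLC30A2 fell by 0.43 at 6 h and 0.54 at 72 h (adjusted p = 0.00075 and 5.2e-07). The outer loop fell by 0.34 and 0.47 (adjusted p = 0.02 and 4.5e-05), with the 6 h call lost without replicate 3 of 0 h (0.086) and with the length correction (0.083). Next in level was a triplet of 160 kb within GSE1 on chromosome 16 (chr16:85440001-85450000, chr16:85560001-85570000 and chr16:85600001-85610000), in which all 3 loops fell at 72 h, by 0.43, 0.51 and 0.48 (adjusted p = 0.00052, 1.6e-06 and 0.0002).

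At the promoters with a CTCF core match, loops went both ways. STAG1 stands in the middle anchor of a triplet on chromosome 3, and its loop to chr3:136380001 fell from 35 ± 7.7 to 21.6 ± 4.0 at 72 h, a log2 fold change of -0.59 (SE 0.18, adjusted p = 0.0083). The loop on its other side and the outer loop had -0.22 and -0.35 (adjusted p = 0.28 and 0.17). STEAP1 is a first anchor, and its inner loop rose from 36.6 ± 6.9 to 65.4 ± 13.0, by 0.76 (SE 0.15, adjusted p = 2e-05), while its outer loop had 0.16 (adjusted p = 0.4). SAT1's inner loop fell by 0.40 (SE 0.12, adjusted p = 0.0074), and its outer loop had -0.22 (adjusted p = 0.4). The loops of WDR38 had -0.05 and 0.03 (adjusted p = 0.7 and 0.92). These genes were chosen by the letters of their promoters.

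Each of 3 gene lists had 1 member with an end in a triplet anchor. Of 22 megakaryocyte genes, MEIS1, a homeobox factor of blood progenitors, had an end in a triplet anchor. It had 1 tested loop there, which was not called and had a log2 fold change of -0.33 at 72 h. Of 19 erythroid genes, GYPB did, with both of its tested loops lost at 72 h as described. Of 13 AP-1 and immediate early genes, FOSL2 did, in the last anchor (chr2:28390001-28400000) of a triplet of 640 kb whose middle anchor lies in BABAM2 (chr2:28150001-28160000). The loop between BABAM2 and FOSL2 had 39.1, 34.2, 36.4 and 35.2 at 0 h, 38.2, 33.6, 31.1 and 48.3 at 6 h, and 41.6, 44.2, 34.3 and 38.4 at 72 h. These values overlapped, and the log2 fold changes were 0.05 at 6 h and 0.12 at 72 h (SE 0.17 and 0.16, adjusted p = 0.91 and 0.61). The outer loop to FOSL2 had -0.18 and 0.14 (adjusted p = 0.62 and 0.53).

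The 3 sets of 4 anchors that were all joined to each other had 6 loops each. The set on chromosome 1 runs from CHD1L (chr1:147270001-147280000) past BCL9 and ACP6 to chr1:147890001-147900000. One of its 6 loops changed at 72 h: the link of 150 kb from chr1:147490001 to ACP6 (chr1:147640001-147650000) had 49.2, 50.3, 53.9 and 46.6 at 0 h and 92.0, 74.3, 77.0 and 71.4 at 72 h. It rose by 0.64 (SE 0.13, adjusted p = 4.5e-05). The other 5 loops had log2 fold changes of -0.16 to 0.09.

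On chromosome 11, the set from ARRB1, beta-arrestin (chr11:75280001-75290000 and chr11:75320001-75330000), through chr11:75380001-75390000 to chr11:75530001-75540000 encloses RPS3 and GDPD5. All 6 of its loops had log2 fold changes of -0.28 to -0.50 at 72 h, and 5 were called. Only the link of 60 kb between chr11:75320001 and chr11:75380001 (193 ± 23.0 at 0 h, 136 ± 1.1 at 72 h, adjusted p = 1.5e-05) kept its call when any single library was left out. The other 4 lost it without replicate 1 of 0 h (adjusted p = 0.05 to 0.16) and each also without at least 2 other single libraries. With the length correction 4 of the 5 calls ended (adjusted p = 0.43, 0.076, 0.051 and 0.088 for the links of 40, 100, 210 and 150 kb), and DESeq2 ended those of 210 and 150 kb (0.097 and 0.091).

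The set on chromosome 2 encloses NFE2L2, the oxidative stress factor NRF2, and HNRNPA3, an RNA-binding protein. Its loop from chr2:177160001 to chr2:177330001 had 188, 162, 172 and 144 at 0 h, 126, 112, 150 and 130 at 6 h, and 99.1, 90.4, 96.7 and 94.6 at 72 h. It fell by 0.38 at 6 h (SE 0.10, adjusted p = 0.011) and by 0.80 at 72 h (SE 0.11, adjusted p = 1.7e-10), with every 72 h library below every earlier one. The loop from the same anchor to AGPS (chr2:177410001-177420000) had a log2 fold change of -0.21 (adjusted p = 0.25), and the ratio of that longer loop to the shorter rose by 0.62 (SE 0.18, limma adjusted p = 0.018). The longest loop of the set, to PDE11A (chr2:177720001-177730000), had -0.35 (adjusted p = 0.052) and was called without replicate 2 of 0 h (adjusted p = 0.035), any single library of 6 h (0.042 to 0.045) or replicate 4 of 72 h (0.033).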

How the data were processed

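Per the file headers, the deposited table gives raw contact counts of each loop in 30 columns, which hold the technical replicates and were all used. A loop joins anchors of 10 kb, and their positions are given here counted from 1. The deposited log2 fold changes, adjusted p-values and classes were not used. Juicer 1.5.6, DESeq2 and hg38 are named in the submitters' processing notes. The loop caller, aligner and the role of each tool are not given in the sources used here. Counts include local background, which was not subtracted.

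The columns were summed into 12 libraries and analysed in R 4.3.3 by edgeR 4.0.16 (TMM, filterByExpr with a minimum count of 10 and a minimum total of 15, quasi-likelihood test, 1 fit of all times without covariate). A prior count of 2 enters each log2 fold change. Ratios of nested loops were fitted with limma 3.58.1 on log2 values. Adjusted p-values are Benjamini-Hochberg values over all tested loops or pairs. Both fits were tested on simulated data. The number of counts limits the precision of each value: tested loops had a median normalized count of 29.4.

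Gene ends and promoters come from RefSeq tables of GRCh38.p14, the same build as hg38. Motifs were searched as letters on both strands. Triplets and gene lists were chosen with earlier results of these data known. Named triplets were taken by these rules: the 4 with the largest smallest rise of all 3 loops and the 4 with the largest smallest fall at 72 h, up to 4 each with both outer-to-inner ratios up or down, up to 3 each with all loops gained or lost at 6 h, the 2 with the highest counts, those at genes of the lists, and the largest fully joined sets. A triplet that shares a loop with one already taken under the same rule was passed over. Alternatives were other scalings, filters, a loop length correction (loess, span 0.3), DESeq2 1.42.0, a replicate block, a batch term, and fits without single libraries. Replicates 3 and 4 summed at every time was added after the data were seen.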

Additional observations from a re-analysis of the deposited data

Results flagged for a closer look

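Among 138 groups of 4 libraries behind the values reported, 5 held a library far from the others by Dixon's criterion, where chance gives about 1 in 20 (6.9 here). The loop from DMBT1 to chr10:122700001-122710000 had 31.4 in replicate 3 of 0 h, against 14.8 to 17.4 in the others. The CEMIP-MESD loop had 61.5 in replicate 4 of 6 h, against 47.7 to 50. The loop between chr11:75380001-75390000 and chr11:75530001-75540000 had 64.6 in replicate 2 of 0 h, against 86.4 to 89.8. The loop from chr2:177160001-177170000 to AGPS had 79.6 in replicate 4 of 6 h, against 56.9 to 59.4. The outer share of triplet contacts at 0 h was 25.7% in replicate 3, against 26.0% in the others.

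The effects of the first 6 h and of the later interval differed in direction in 13 triplet loops, called one way at 6 h against 0 h and the opposite way at 72 h against 6 h (edgeR, adjusted p). Of these 13, 4 rose first. They were 0.796% of tested triplet loops, against 0.945% (228) of all tested loops. On chromosome 7 an inner loop and the outer loop of 1 anchor (chr7:135270001, to chr7:136010001 and chr7:136400001) both did so, with log2 fold changes of 0.61 and 0.88 by 6 h and of -0.82 and -1.0 from 6 h to 72 h. An inner loop on chromosome 12 (chr12:92140001 to chr12:92570001) went the other way, with -0.85 and then 0.94. The 6 h libraries enter both comparisons.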

How the results depend on the processing

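Counts of called triplet loops changed with the threshold, the tool, the anchors and the libraries used. At 6 h, 72 h and 72 h against 6 h, in this order, 111, 570 and 328 became 42, 288 and 163 with a fold change of at least 1.5, 48, 340 and 123 with DESeq2, 547, 3241 and 1984 with anchors within 1 bin, 41, 361 and 146 within replicates 1 and 2, and 16, 277 and 113 within replicates 3 and 4. Leaving out single libraries gave 47 to 109, 450 to 592 and 248 to 337. Ratio calls of triplet pairs became 141 at 6 h and 797 at 72 h with anchors within 1 bin, and 8 to 20 and 73 to 123 without single libraries. The difference of the outer and inner medians at 6 h (0.054) was 0.091 with anchors within 1 bin, 0.030 with a mean count of at least 20 and 0.042 to 0.075 without single libraries. With the length correction it reversed to -0.016, the outer median reversed to -0.026 at 6 h and -0.065 at 72 h, and the difference at 72 h moved from 0.033 to -0.095; the cause was not tested beyond the values by length class. Within replicates 1 and 2 that difference was -0.007 and within replicates 3 and 4 0.108. The 2 changes in the outer share kept their direction under each of the 15 alternatives run for them (0.944 to 1.081 and 0.344 to 0.774 points without single libraries), although the 72 h change differed between the sets of replicates as reported. Of 71 changes of named loops, 32 kept their side of the threshold under every alternative, 39 did not under at least 1, and 0 reversed.

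With the replicate block, 143, 603 and 360 triplet loops were called, and 20 and 114 ratios. The labels do not say what a number shares. Same-numbered libraries had correlations of 0.0146 to 0.124, and a library correlated best with its own number in 21 of 24 comparisons with another time, a hint from the data and not the design. Depth limits single loops: a loop at the median normalized count of 29.4 carries large counting error.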
